A study of Arabidopsis thaliana with 6 samples.

Results

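The genes described here are the 47 plastid-encoded identifiers for photosynthesis and the NDH complex, out of 33532 gene identifiers in the table. They are defined by a list of identifiers, and the rule itself uses no measured value. They comprise 15 identifiers for photosystem II, 5 for photosystem I, 6 for the cytochrome b6f complex, 6 for the ATP synthase, 12 for the NADH dehydrogenase-like (NDH) complex, 1 for the large subunit of Rubisco (rbcL) and 2 for assembly factors (ycf3 and ycf4). The data came from 6 RNA sequencing libraries of whole seedlings of Arabidopsis thaliana, wild type, ecotype Col-0. All seedlings grew for 10 days on solid medium of the Murashige and Skoog type at reduced strength (1/2 MS). In 3 libraries the medium held no drug (control) and in 3 it held 5 µg/mL doxycycline throughout. The design text calls the 3 libraries of a group biological replicates, without saying whether plates or harvests were separate, so p-values measure the spread between these libraries.

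Plastids keep a small genome of bacterial origin, and many of its protein genes encode the parts of the photosynthetic membrane complexes that sit at their cores. The remaining subunits of the same complexes are encoded in the nucleus and imported. Plastid genes are read by a bacterial-type RNA polymerase, whose core subunits are themselves plastid-encoded and made on plastid ribosomes, and by a phage-type polymerase encoded in the nucleus. Photosynthesis genes are read mainly by the first, and a few housekeeping genes mainly by the second. Doxycycline, an antibiotic of the tetracycline family, blocks ribosomes of the bacterial type, and such ribosomes work in both mitochondria and plastids. The series title states the question as the transcriptome under impaired mitochondrial translation.

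A promoter of the bacterial type carries the elements TTGACA and TATAAT or close variants, and a well-studied case stands before psbA, the gene for the reaction-centre protein of photosystem II that turns over fastest. It is shown with the coding sequences of psbM and psbT, small photosystem II subunits that were, respectively, the member above every control and one of the members below every control. All are from the plastid chromosome of RefSeq assembly TAIR10.1 and written 5′ to 3′. Capitals mark the 2 promoter elements of psbA and the start and stop codons of psbM and psbT.
psbA (minus strand, beginning 115 bases before the start codon): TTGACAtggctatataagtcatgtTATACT
psbM (minus strand): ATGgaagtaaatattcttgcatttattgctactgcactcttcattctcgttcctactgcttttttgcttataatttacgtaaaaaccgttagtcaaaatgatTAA
psbT (plus strand): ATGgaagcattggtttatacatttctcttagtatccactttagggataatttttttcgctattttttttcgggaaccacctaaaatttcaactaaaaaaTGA
The pattern TTGACA, 15 to 20 bases, TANNNT, searched on both strands in the 200 bases before the start codon, was found for 3 of 85 annotated plastid protein genes (3.5%), psbA being the only member among them. The others were annotated entries of ycf1 on opposite strands, with the same sequence. The gene ycf1 is listed below as read mainly by the nuclear-encoded polymerase, and which polymerase reads it was not tested. The coding sequences of psbM and psbT are 105 and 102 bases long. Of the 47 members, 18 have coding sequences under 300 bases, the shortest with 90, which is near or below the size of a typical sequenced fragment. FPKM divides by length, so the levels of these short genes are the least certain here.

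Expression values were FPKM (fragments scaled to transcript length and to the mapped total of the library), and the size of the lowest values put depth at an estimated 18500000 to 21700000 fragments per library. The controls differed from each other more than the doxycycline libraries did. Pearson correlations across genes of log2(FPKM + 1) were 0.831 to 0.895 between controls and 0.988 to 0.992 between doxycycline libraries. Control 1 was closer to the doxycycline libraries, at 0.961 to 0.964, than to controls 2 and 3, at 0.831 and 0.867. Leaf markers summed to 8417 to 17814 FPKM in controls and 12789 to 17704 FPKM with doxycycline, root markers to 5.18 to 32.8 and 8.06 to 14.6 FPKM, and seed markers to 0.237 to 22.5 and 12.4 to 15.4 FPKM. All 4 leaf, all 5 root and both seed markers were above 0 in every library, and their part in the values below was not tested.

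The 133 plastid identifiers summed to 1386, 3677 and 825 FPKM (controls 1 to 3) and 2016, 1597 and 1580.0 FPKM (doxycycline 1 to 3). Control 2 stood apart, with the highest plastid sum. The nuclear 18S ribosomal RNA gene AT3G41768 was listed at 954, 10573 and 457 FPKM in controls and at 1833, 1374 and 1356 FPKM with doxycycline, and the 6 libraries had the same order in both measures. How messenger RNA was selected is not given in the sources used here, and the part of ribosomal or other RNA without a poly(A) tail in the plastid levels was not tested. In bulk RNA, fewer plastid-rich cells and fewer transcripts per cell cannot be told apart.

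The members summed to 787, 2387 and 503 FPKM (controls 1 to 3) and 877, 752 and 667 FPKM (doxycycline 1 to 3). Control 2 held the highest value of 42 of the 45 members that were tested, so on the FPKM scale the group comparison depended on that library. Relative to control 1, every doxycycline library was higher in 20 members and lower in 16. Relative to control 3 the counts were 23 and 8, and relative to control 2 they were 3 and 42. The shares over all genes relative to single controls are not given here, so these counts describe the members only. The median difference of the doxycycline mean on the log2(FPKM + 1) scale was 0.29 relative to control 1, 0.40 for control 3 and -2.29 for control 2.

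**Figure D1:**
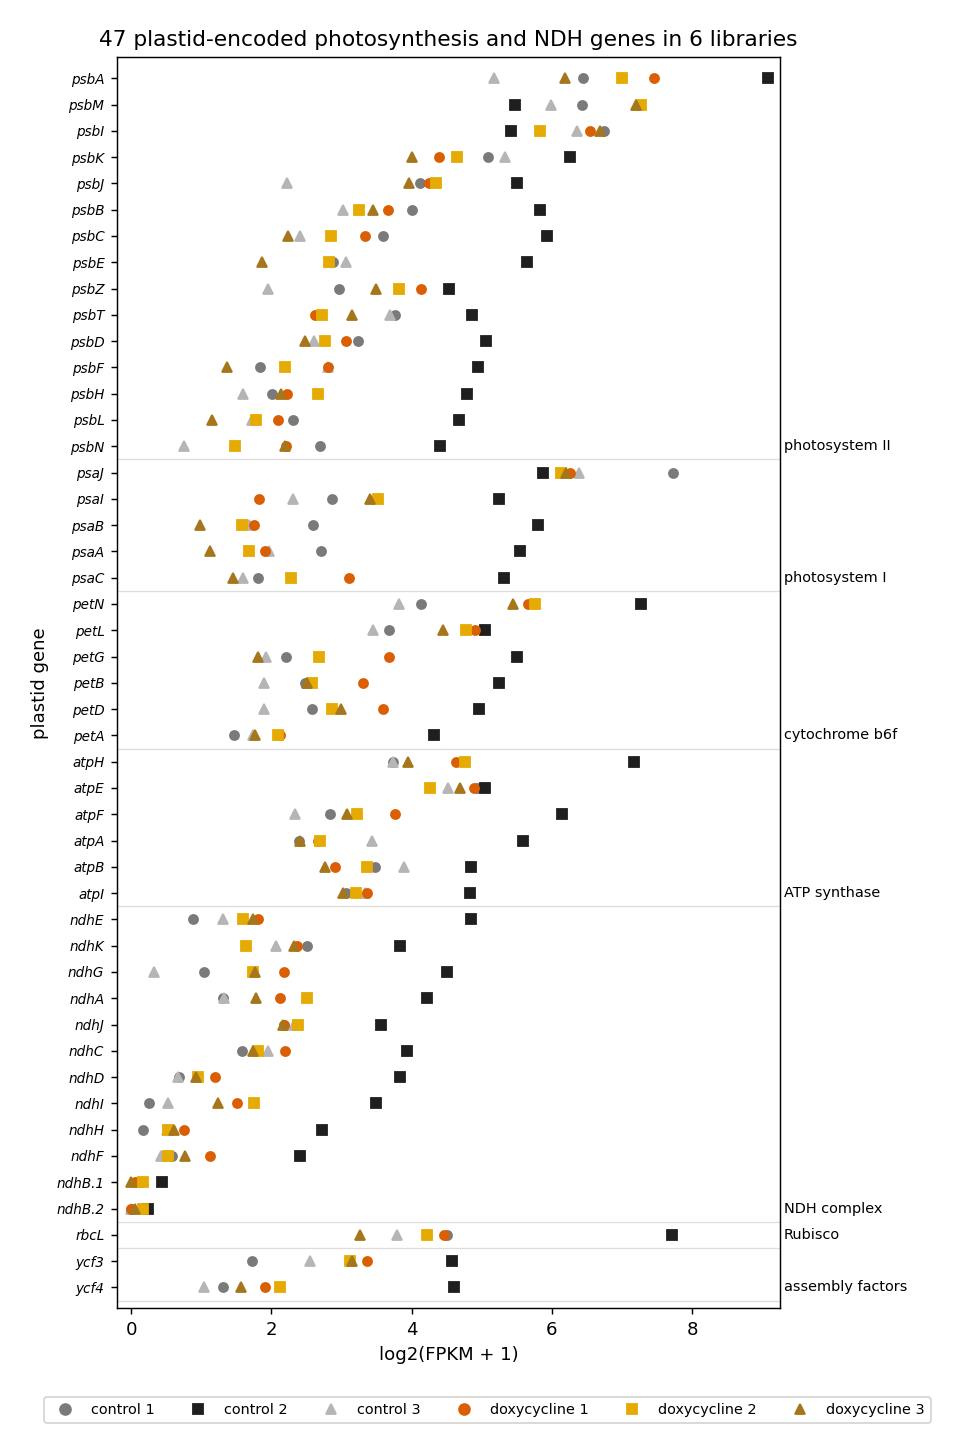
Level of each of the 47 members as log2(FPKM + 1) on the horizontal axis, grouped by complex, with 1 point per library (grey and black controls, orange to brown doxycycline). The black squares of control 2 lie farthest right in most genes, while psbM has all 3 doxycycline points to the right of every control.

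With limma on log2(FPKM + 1), 0 of 45 tested members passed a Benjamini-Hochberg adjusted p of 0.05 over 19035 genes (background 0.0%), and the lowest adjusted p of a member was 0.121. At an unadjusted p under 0.05 limma gave 1 member higher and 3 lower, where the shares over all genes were 6.83% higher and 18.8% lower. In 1 member (2.2%) every doxycycline library lay above every control, and in 5 (11.1%) every one lay below, where the shares over all genes were 9.59% and 25.7%. Such counts did not exceed those of the transcriptome as a whole. The median log2 difference of the tested members was -0.51, beside -0.29 for all genes, and without control 2 it turned to 0.28. The 2 untested members, both ndhB identifiers, had means under 1 FPKM. Without control 1, limma called 5 members, psbM higher and psbK, psbT, atpB and atpA lower, while the share over all genes in that fit was 9.72% higher and 35.6% lower. The values of atpA were 4.25, 46.9 and 9.79 FPKM (controls 1 to 3) and 5.32, 5.46 and 4.33 FPKM (doxycycline 1 to 3). Every doxycycline library thus lay above the control left out, and with all libraries the limma adjusted p of atpA was 0.303.

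Among photosystem II genes, psbM (ATCG00220) stood highest relative to controls, at 85.1, 43.6 and 62.5 FPKM (controls 1 to 3) and at 151, 153 and 146 FPKM (doxycycline 1 to 3). The lowest doxycycline library was above the highest control, with a log2 difference of 1.28 ± 0.258 (SE; limma adjusted p = 0.121). The gene psbK (ATCG00070), for another small subunit, lay on the other side at 33.1, 75.5 and 39.4 FPKM against 19.9, 24.0 and 15.04 FPKM on the drug, with a log2 difference of -1.22 ± 0.337 (SE; limma adjusted p = 0.136). The small subunit gene psbT (ATCG00690) likewise did not overlap, at 12.6, 28.2 and 12.0 FPKM against 5.18, 5.59 and 7.90 FPKM on the drug, with a log2 difference of -1.28 ± 0.353 (SE; limma adjusted p = 0.136). Both had their highest level in control 2 and lay below the other controls too with doxycycline.

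The reaction-centre gene psbA (ATCG00020) was the member with the highest mean, at 86.1, 542 and 35.0 FPKM (controls 1 to 3) and at 174, 127 and 71.5 FPKM (doxycycline 1 to 3). Its groups overlapped fully, the doxycycline libraries lying between controls 3 and 2, with a log2 difference of -0.02 ± 0.925 (SE; limma adjusted p = 0.99). Its partner in the reaction centre, psbD (ATCG00270), stood at 8.42, 32.2 and 5.07 FPKM against 7.32, 5.78 and 4.6 FPKM on the drug. The genes of the inner antenna proteins that pass excitation to the reaction centre followed, psbC (ATCG00280) at 11.1, 60.1 and 4.29 FPKM against 9.11, 6.22 and 3.70 FPKM on the drug and psbB (ATCG00680) at 15.01, 55.9 and 7.08 FPKM against 11.6, 8.47 and 9.94 FPKM on the drug. In these 3 genes the doxycycline libraries lay between controls 1 and 3 or just under control 3, and well below control 2.

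For the cytochrome subunit gene psbE (ATCG00580) the values were 6.32, 49.2 and 7.36 FPKM against 6.09, 6.04 and 2.63 FPKM on the drug, so the groups did not overlap, although doxycycline libraries 1 and 2 were close to control 1, with a log2 difference of -1.36 ± 0.737 (SE; limma adjusted p = 0.264). Its neighbour psbL (ATCG00560) stood at 3.95, 24.6 and 2.32 FPKM against 3.28, 2.44 and 1.22 FPKM on the drug and overlapped with control 3. The small subunit gene psbZ (ATCG00300) went the other way relative to controls 1 and 3, at 6.79, 22.2 and 2.87 FPKM against 16.5, 13.1 and 10.3 FPKM on the drug. The doxycycline libraries exceeded those 2 controls in psbZ and stayed below control 2. The remaining photosystem II members (psbI, psbJ, psbF, psbH and psbN) overlapped between groups, with limma log2 differences of -1.07 for psbF to 0.24 for psbJ. The annotated psbN gene lies on the strand opposite its neighbours psbT and psbH, and strand handling is not given in the sources used here, so its reads may not be separable from read-through of theirs.

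The photosystem I reaction-centre genes psaA (ATCG00350) and psaB (ATCG00340) encode the chlorophyll-binding heart of that complex. With all libraries they were the members with the most negative differences. Without control 2 their log2 differences were -0.77 and -0.70, less negative than -0.90 for psbT and -0.87 for psbK. The gene psaA stood at 5.52, 45.6 and 2.91 FPKM (controls 1 to 3) and at 2.75, 2.19 and 1.18 FPKM (doxycycline 1 to 3). All doxycycline libraries lay below all controls, but doxycycline 1 and control 3 nearly touched, with a log2 difference of -1.84 ± 0.861 (SE; limma adjusted p = 0.22). The gene psaB stood at 5.01, 54.9 and 2.21 FPKM against 2.37, 2.01 and 0.968 FPKM on the drug and overlapped with control 3, with a log2 difference of -1.92 ± 0.978 (SE; limma adjusted p = 0.244). The lowest value of psaA corresponded to an estimated 55 fragments.

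The other photosystem I genes are short. The gene psaJ (ATCG00630), for a small membrane subunit, departed from the usual order of libraries, at 212, 57.6 and 82.4 FPKM (controls 1 to 3) and at 75.4, 69.0 and 72.7 FPKM (doxycycline 1 to 3). It was highest in control 1, and the other 5 libraries lay within a narrow range. The small subunit gene psaI (ATCG00510) stood at 6.31, 36.9 and 3.97 FPKM against 2.53, 10.4 and 9.57 FPKM on the drug, and psaC (ATCG01060), which encodes the iron-sulfur protein that hands electrons to ferredoxin, at 2.51, 38.9 and 2.02 FPKM against 7.61, 3.87 and 1.74 FPKM on the drug. Both overlapped between groups, with control 2 highest.

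The cytochrome b6f complex carries electrons between the photosystems. Its shortest gene petN (ATCG00210) stood at 16.6, 153 and 13.1 FPKM (controls 1 to 3) and at 49.6, 53.4 and 42.7 FPKM (doxycycline 1 to 3), and petL (ATCG00590), for another small subunit, at 11.8, 32.2 and 9.89 FPKM against 29.0, 26.3 and 20.7 FPKM on the drug. In both, every doxycycline library exceeded controls 1 and 3 and none exceeded control 2. The limma log2 difference was 0.55 ± 0.845 (SE; limma adjusted p = 0.671) for petN and 0.65 ± 0.42 (SE; limma adjusted p = 0.332) for petL. The genes of the larger subunits, petA for cytochrome f, petB for cytochrome b6 and petD for subunit IV, and the small petG overlapped between groups, with differences of -0.52 for petA to 0.01 for petD.

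Of the ATP synthase genes, atpB (ATCG00480) for the catalytic beta subunit was below every control with doxycycline, at 10.2, 27.8 and 13.8 FPKM (controls 1 to 3) and at 6.51, 9.24 and 5.80 FPKM (doxycycline 1 to 3). The closest pair was doxycycline 2 and control 1, and the limma result was a log2 difference of -1.06 ± 0.372 (SE; limma adjusted p = 0.158). The gene atpH (ATCG00140) for the membrane ring subunit stood at 12.3, 143 and 12.3 FPKM against 23.8, 26.1 and 14.5 FPKM on the drug, and atpE (ATCG00470) for the epsilon subunit at 29.6, 32.1 and 22.0 FPKM against 28.5, 18.2 and 24.7 FPKM on the drug. In both the groups overlapped. With all libraries on the deposited scale, the log2 difference was negative in all 6 ATP synthase genes. It ran from -1.21 for the alpha subunit gene atpA to -0.23 for atpE, which turned to 0.076 after median-of-ratios scaling. In atpF and atpH, however, every doxycycline library exceeded controls 1 and 3. Without control 2 the difference was 0.71 for atpH, -0.68 for atpB, -0.12 for atpE and -0.0049 for atpI, the last being close to no difference. The values of atpI (ATCG00150), for the membrane subunit beside the ring, were 7.40, 27.6 and 9.11 FPKM against 9.28, 8.24 and 7.14 FPKM on the drug, and its groups overlapped. A nuclear sequence of at least 95% identity covers the whole atpI coding sequence, the one member with such a copy over 90% of its length, so its reads may have been shared.

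NDH genes encode a complex that returns electrons from ferredoxin to the plastoquinone pool in cyclic electron flow, and they were among the members with the lowest levels per length. Their 12 identifiers summed to 15.1, 139 and 15.2 FPKM (controls 1 to 3) and 25.7, 22.3 and 20.5 FPKM (doxycycline 1 to 3). The highest sum was in control 2, and the doxycycline libraries lay above controls 1 and 3. The gene ndhE (ATCG01070) stood at 0.839, 27.7 and 1.48 FPKM against 2.51, 2.02 and 2.33 FPKM on the drug, and ndhK (ATCG00430) at 4.70, 13.2 and 3.20 FPKM against 4.18, 2.104 and 3.99 FPKM on the drug. In ndhE the doxycycline libraries exceeded controls 1 and 3, whereas in ndhK they were all below control 1 and lay on either side of control 3. In the 10 tested NDH genes the groups overlapped, and log2 differences ran from -0.70 for ndhD to 0.08 for ndhI. Coverage was thin at the low end: ndhH corresponded to an estimated 3 fragments in control 1 and ndhI to 2.

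The paired identifiers for ndhB could not be assessed. The plastid genome carries this gene in both arms of its inverted repeat, and the coding sequences of 1539 bases in the reference had 0 mismatches between them. The listed values were 0 to 0.36 FPKM in the first and 0 to 0.18 FPKM in the second identifier over all libraries. Reads that match both copies may have been split or dropped, so these values were not read as expression.

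Rubisco fixes carbon dioxide in the Calvin cycle, and its large subunit gene rbcL (ATCG00490) stood at 21.8, 209 and 12.8 FPKM (controls 1 to 3) and at 21.0, 17.6 and 8.56 FPKM (doxycycline 1 to 3). The doxycycline libraries were all below controls 1 and 2, the first only just, and lay on either side of control 3, with a log2 difference of -1.36 ± 0.96 (SE; limma adjusted p = 0.368). Sequences of at least 95% identity cover 44.7% of the rbcL coding sequence in nuclear and 39.8% in mitochondrial DNA, and for psbA 47.6% in each. For the photosystem I assembly factors, ycf3 (ATCG00360) stood at 2.29, 22.9 and 4.87 FPKM against 9.32, 7.74 and 7.84 FPKM on the drug and ycf4 (ATCG00520) at 1.48, 23.3 and 1.06 FPKM against 2.77, 3.34 and 1.97 FPKM on the drug. In both, every doxycycline library exceeded controls 1 and 3 and lay below control 2.

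Since the libraries differed in how much plastid RNA they held, each member was also expressed per 1000 FPKM of the summed plastid identifiers of its library. On this scale the members together made up 60.9% ± 4.06 of the plastid sum in controls and 44.3% ± 2.49 with doxycycline (SD, n = 3 each). The shares were 56.8, 64.9 and 61.1% (controls 1 to 3) and 43.5, 47.1 and 42.2% (doxycycline 1 to 3) and did not overlap. Members of at least 300 coding bases summed to 241, 1475 and 157 FPKM (controls 1 to 3) and 352, 267 and 194 FPKM (doxycycline 1 to 3). Shorter members thus made up most of the member sum in every library but control 2. As a part of the plastid sum, the longer members overlapped between groups, doxycycline 1 lying just above control 1. An exact permutation test of 3 libraries against 3 cannot give a two-sided p below 0.1, and none was run on these sums. Of the 45 tested members, 13 had a lower share in every doxycycline library than in any control and 2 had a higher one. Among the 50 other plastid identifiers tested, 0 were lower (0.0%) and 12 higher (24.0%). Shares of one total are not independent: when some are lower, others must be higher.

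**Figure D2:**
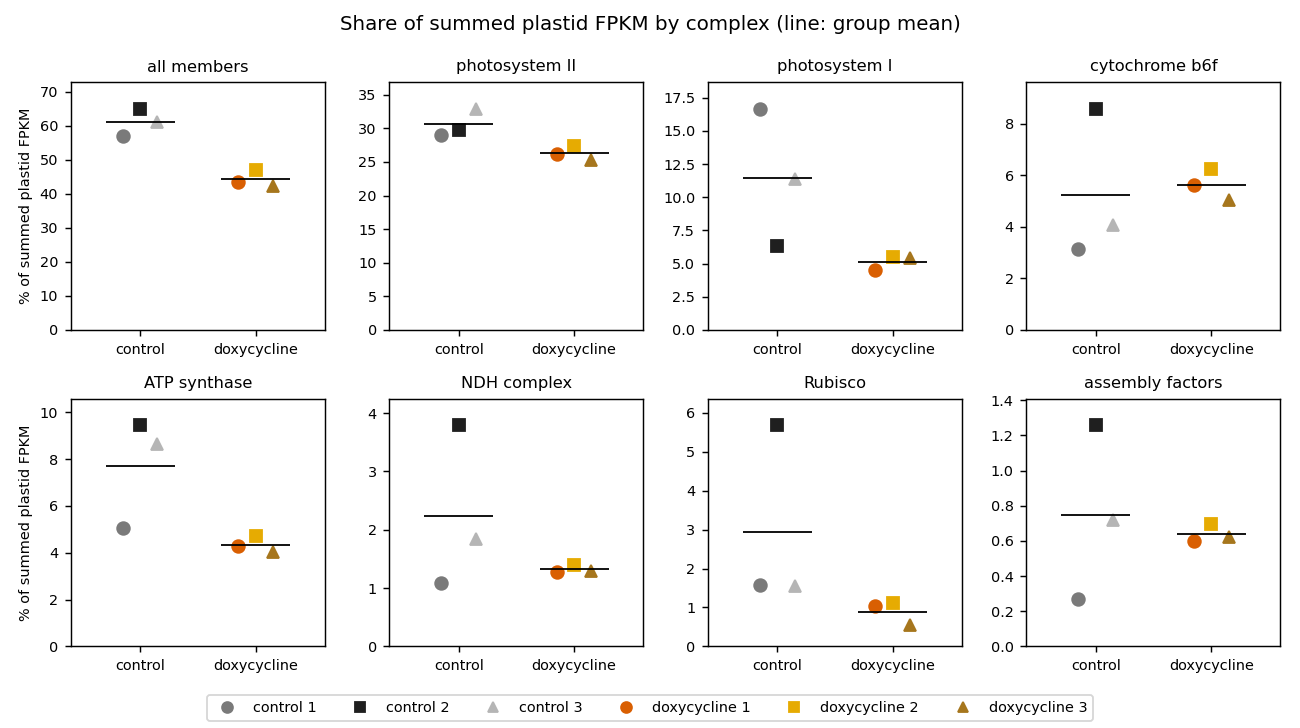
Summed FPKM of all members and of each complex as a percentage of the summed plastid FPKM (vertical axes, each starting at 0), with 1 point per library and a line at the group mean. The members as a whole, photosystem II, photosystem I, the ATP synthase and Rubisco have every doxycycline library below every control, whereas cytochrome b6f, the NDH complex and the assembly factors overlap.

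By complex, the share of photosystem I was lower in every doxycycline library than in any control, at 16.7, 6.36 and 11.3% (controls 1 to 3) and 4.496, 5.48 and 5.45% (doxycycline 1 to 3) of the plastid sum. In every library but control 2, most of it was the short gene psaJ, at 153, 15.7 and 99.95 in controls and 37.4, 43.2 and 46.0 with doxycycline per 1000 plastid FPKM. The share of psaJ itself overlapped between groups. Photosystem II made up 29.0, 29.8 and 32.9% (controls 1 to 3) and 26.2, 27.4 and 25.2% (doxycycline 1 to 3), and the ATP synthase 5.04, 9.44 and 8.63% (controls 1 to 3) and 4.27, 4.73 and 4.04% (doxycycline 1 to 3). Neither overlapped between groups. The share of the cytochrome b6f genes was 3.12, 8.59 and 4.07% (controls 1 to 3) and 5.64, 6.24 and 5.06% (doxycycline 1 to 3) and that of the NDH genes 1.09, 3.79 and 1.84% (controls 1 to 3) and 1.28, 1.39 and 1.30% (doxycycline 1 to 3), and both overlapped.

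The 13 lower members were psaA, psaB, psbB, psbC, psbD, psbE, psbK, psbL, psbT, atpB, atpI, ndhK and rbcL, and the 2 higher were psbZ and petL. Per 1000 plastid FPKM, psaA stood at 3.98, 12.4 and 3.53 in controls and 1.36, 1.37 and 0.746 with doxycycline, and psaB at 3.61, 14.9 and 2.69 in controls and 1.18, 1.26 and 0.613 with doxycycline. The ratio of the group means was 0.175 for psaA and 0.144 for psaB, the lowest of all members, although control 2 set much of the control mean. Against the nearest control, control 3, the highest doxycycline library was still below by more than the range of the doxycycline libraries themselves in both genes. The share of rbcL was 15.7, 56.7 and 15.6 in controls and 10.4, 11.04 and 5.42 with doxycycline. Those of the inner antenna genes were 7.98, 16.3 and 5.21 in controls and 4.52, 3.89 and 2.34 with doxycycline for psbC and 10.8, 15.2 and 8.58 in controls and 5.77, 5.30 and 6.29 with doxycycline for psbB. The share of the reaction-centre gene psbD was 6.99 ± 1.53 in controls and 3.39 ± 0.412 with doxycycline (SD, n = 3 each). The share of psbA, by contrast, was 62.1, 147 and 42.4 in controls and 86.4, 79.5 and 45.2 with doxycycline and overlapped.

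**Figure D3:**
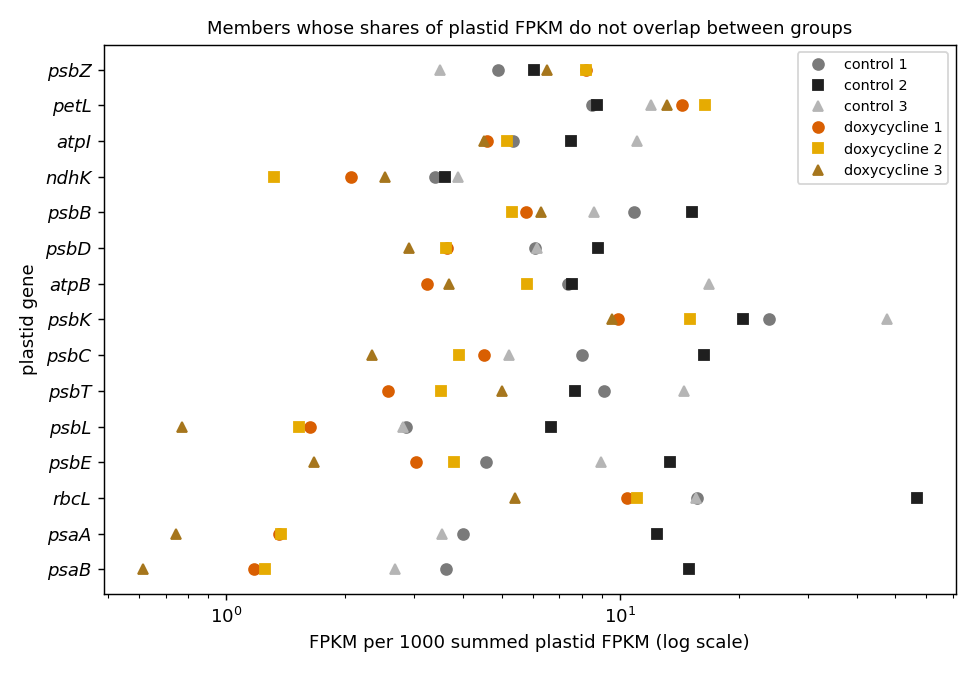
FPKM per 1000 summed plastid FPKM (log axis) in each library for the 15 members whose groups did not overlap on this scale, ordered by the ratio of group means. The photosystem I genes psaB and psaA and rbcL lie at the bottom with the lowest ratios, and psbZ and petL at the top are the members with higher shares with doxycycline.

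The scale itself rests on a few abundant identifiers, so 4 other denominators were tried after the values were seen. They were the plastid sum without ATCG01020 (the most abundant identifier that is not a member), the median ratio over plastid identifiers, the sum without members under 300 coding bases, and the sum without all members. The number of members lower in every doxycycline library was 13, 10, 15 and 16 in that order, and the number higher was 3, 3, 1 and 0. Among the 50 other plastid identifiers, in the same order, 0, 1, 2 and 5 were lower and 13, 16, 12 and 7 higher. With all 5 denominators, 8 members were lower: psaA, psaB, psbB, psbC, psbD, psbE, psbL and rbcL. No member was higher with all 5. Before scaling, of these 8 only psaA and psbE separated the groups in FPKM.

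Many plastid genes are transcribed together from operons, and neighbours in a transcription unit did not always share a pattern. The cotranscribed psaA and psaB were both lower in share. In the unit of psbD, psbC and psbZ the first 2 were lower and psbZ was higher, at 4.90, 6.05 and 3.48 in controls and 8.19, 8.19 and 6.51 with doxycycline per 1000. The reading frames of psbD and psbC overlap by 53 bases, so some reads belong to both. In psbB-psbT-psbH-petB-petD the first 2 genes were lower, while psbH, petB and petD overlapped between groups. In psbE-psbF-psbL-psbJ the lower genes were psbE and psbL. The unit running from ndhH to ndhD, which includes psaC, had no member that separated the groups on this scale.

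Other plastid genes were compared from lists of the polymerase subunits and of housekeeping genes known to be read mainly by the nuclear-encoded polymerase. The protease gene clpP (ATCG00670) stood at 21.6, 39.5 and 19.6 FPKM (controls 1 to 3) and at 60.0, 54.0 and 42.7 FPKM (doxycycline 1 to 3), above every control, with a log2 difference of 0.99 ± 0.294 (SE; limma adjusted p = 0.14). The polymerase subunit gene rpoB (ATCG00190) did the same at 5.11, 5.22 and 4.48 FPKM against 10.9, 11.2 and 7.35 FPKM on the drug, with a log2 difference of 0.85 ± 0.229 (SE; limma adjusted p = 0.134). For accD (ATCG00500), a subunit of acetyl-CoA carboxylase, the values were 0.525, 6.10 and 0.524 FPKM against 2.26, 2.204 and 1.91 FPKM on the drug. The values of ycf1 (ATCG01130), for a component of the import machinery of the plastid envelope, were 0.46, 2.71 and 0.312 FPKM against 2.65, 2.40 and 3.01 FPKM on the drug. Both exceeded controls 1 and 3 in every doxycycline library, accD stayed below control 2 and ycf1 overlapped with it. Per 1000 plastid FPKM, clpP and ycf1 lay above every control, while accD and rpoB overlapped. The share of rpoB was 3.69, 1.42 and 5.44 in controls and 5.42, 7.04 and 4.65 with doxycycline. Of all genes, 9.59% lay above every control in FPKM, and of the other plastid identifiers 24.0% did so in share. The other core polymerase subunits stood at 1.61, 6.94 and 2.19 FPKM against 3.59, 1.87 and 3.11 FPKM on the drug for rpoA (ATCG00740), 0.453, 4.20 and 0.399 FPKM against 1.13, 0.675 and 0.511 FPKM on the drug for rpoC1 (ATCG00180) and 0.174, 1.97 and 0.099 FPKM against 0.442, 0.265 and 0.367 FPKM on the drug for rpoC2 (ATCG00170), and overlapped between groups. The identifiers for ycf2, also in the inverted repeat, were listed at 0 to 0.028 FPKM and were not read as expression.

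The genes psaA, psaB, psbB, psbC, psbD and rbcL together were set against the 8 identifiers listed as read mainly by the nuclear-encoded polymerase. Those were clpP, accD, ycf1, rpoB, rpoC1, rpoC2 and both ycf2 identifiers. The ratio was 2.36, 7.65 and 1.35 (controls 1 to 3) and 0.7, 0.597 and 0.518 (doxycycline 1 to 3). The gene clpP, described above, made up 66.2% to 77.5% of the denominator, so the ratio is mostly one to clpP. Every doxycycline ratio lay below every control ratio, while control 2 stood far above the other controls. With psbA added, the ratio was 5.40, 16.7 and 2.73 (controls 1 to 3) and 2.95, 2.39 and 1.80 (doxycycline 1 to 3), and doxycycline 1 then exceeded control 3. These ratios were chosen with the values known and carry no test. The genes of the first numerator were all among the members lower with every denominator above, so its separation is not independent of that result.

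Nuclear genes for subunits of the same complexes were compared on the FPKM scale. Of 50 such genes, 0 passed limma's adjusted p of 0.05. At an unadjusted p under 0.05 there were 18 higher and 1 lower. Every doxycycline library lay above every control in 20 and below in 1, RBCS2B for a small subunit of Rubisco, beside 9.59% and 25.7% of all genes. Their median log2 difference was 0.72, beside -0.51 for the plastid members and -0.29 for all genes. The opposite signs rested on control 2: without it the medians were 0.36 for the nuclear genes, 0.28 for the plastid members and -0.15 for all genes. With all libraries, the medians by complex of nuclear against plastid genes were 0.89 and -0.83 for photosystem II, 0.77 and -0.63 for photosystem I, 1.02 and -0.20 for cytochrome b6f, 0.53 and -0.49 for the ATP synthase, and 0.57 and -0.48 for NDH. For Rubisco the nuclear median was -0.14 over 4 genes, beside -1.36 for rbcL. The difference between the nuclear and plastid medians was not tested. Control 2, with the highest plastid sum, had the lowest nuclear photosystem sums, at 10239 FPKM for photosystem II and 7516 FPKM for photosystem I. In controls 1 and 3 the photosystem II sums were 35830 and 20692 FPKM, beside 36222 to 39167 FPKM with doxycycline. The photosystem I sums were 34367 and 16973 FPKM in those controls, beside 31182 to 32989 FPKM with doxycycline.

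The 4 nuclear subunit genes with the lowest p all belonged to NDH. The lumenal subcomplex gene PNSL2 (AT1G14150) stood at 66.4, 48.9 and 49.2 FPKM (controls 1 to 3) and at 154, 153 and 126 FPKM (doxycycline 1 to 3), with a log2 difference of 1.39 ± 0.2 (SE; limma adjusted p = 0.121). The groups did not overlap, and the lowest doxycycline library was well above the highest control. Subcomplex B genes PNSB1 (AT1G15980) and PNSB4 (AT1G18730) gave log2 differences of 1.17 ± 0.258 (SE; limma adjusted p = 0.126) and 1.24 ± 0.283 (SE; limma adjusted p = 0.128). NDHU (AT5G21430), for a subunit at the ferredoxin-binding side, stood at 91.5, 73.3 and 99.6 FPKM against 162, 158 and 140.1 FPKM on the drug, with a log2 difference of 0.80 ± 0.191 (SE; limma adjusted p = 0.129). Of the 17 nuclear NDH genes 9 lay above every control and 0 below, beside 9.59% and 25.7% of all genes, and 0 of the 10 tested plastid NDH genes separated the groups. Set against controls 1 and 3 alone, every doxycycline library was higher in 10 of these nuclear genes and in 6 of these plastid genes. The share over all genes against those controls is not given here, and fewer controls can only add to such counts. The difference between the nuclear and plastid genes lay mostly in control 2 and was not tested.

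**Figure D4:**
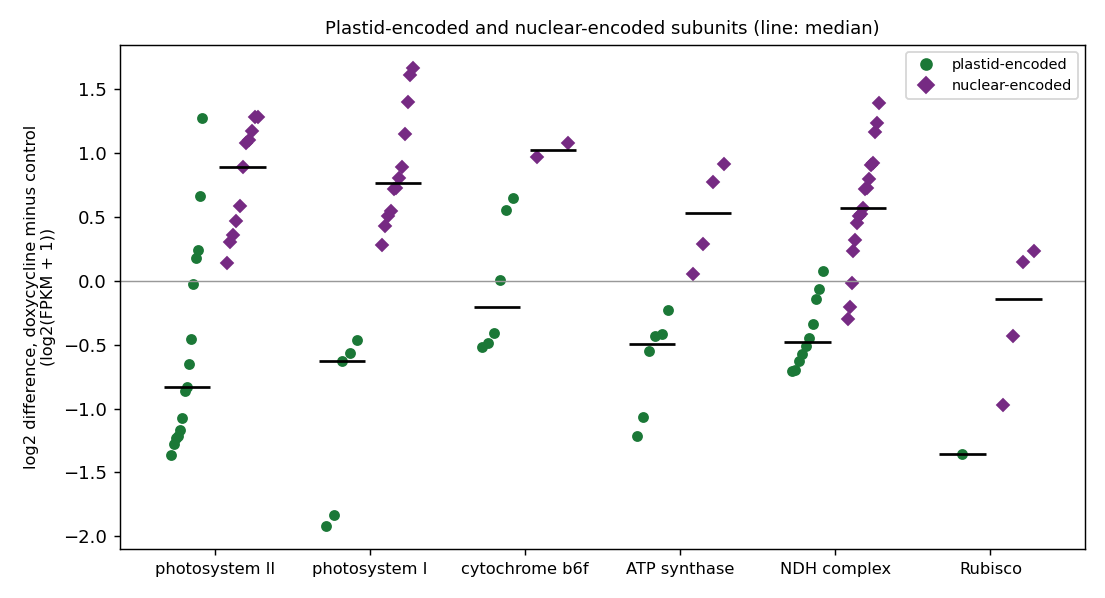
Limma log2 difference, doxycycline minus control, on the log2(FPKM + 1) scale for each tested plastid-encoded gene (green circles) and nuclear-encoded gene (purple diamonds) of 6 complexes, with a line at the median. With all libraries the nuclear median lies above the plastid median in each complex; without control 2 the medians over all complexes were 0.36 and 0.28, and none of these differences passed the adjusted threshold.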

How the data were processed

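The authors deposited 1 table of FPKM values with 1 column per library; its header names no unit, which was read from the values. Per the labels' protocols, RNA was extracted with TRIzol and the kit was VAHTS Universal V6. The submitters' processing notes list TopHat2 2.1.0, Cufflinks 2.2.1 and TAIR10 without roles. An exact 0 can be a failed estimate.

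Values were analysed as log2(FPKM + 1), which understates changes of low genes, for the 19035 genes whose mean was 1 FPKM or more. The groups were compared by limma 3.58.1 in R 4.3.3 (trended variances, no covariate, two-sided, Benjamini-Hochberg adjustment over those genes, threshold 0.05). The fit was tested on simulated libraries of equal spread, so that test does not cover controls as unequal as these. Groups do not overlap where all libraries of one lie above all of the other. For depth, low values of nuclear genes of at least 600 bases were matched to whole reads; 54.0% to 65.4% came within 0.08 reads, so no count test was run.

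RefSeq TAIR10.1 does not pair the plastid identifiers with symbols. Symbols follow common Arabidopsis usage; identifier order and position rose together in 46 of 46 steps. Copies elsewhere were searched with BLAST 2.17.0. Members and lists were chosen with earlier results of these data known. Named were psbA, rbcL, ycf3, ycf4, the 2 highest members of each complex, members whose groups do not overlap in FPKM or plastid share, the 3 lowest limma p, 8 other plastid genes (ycf2 having 2 identifiers) and the 4 nuclear subunits with the lowest p. The main fit did not pair the libraries by replicate number.

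Pseudocounts of 0.1 and 0.01 were tried, as were no filter, a minimum mean of 5 FPKM, median-of-ratios and quantile scaling, robust variances, a replicate block, plastid-sum scaling and leaving out each library.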

Additional observations from a re-analysis of the deposited data

How the results depend on the processing

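With limma, 0 genes, 0 members and 0 nuclear subunits were called under both pseudocounts, both filters, both scalings, robust variances and the replicate block. Leaving out 1 library gave 0 to 8686 genes, 0 to 5 members and 0 to 28 nuclear subunits; the highest counts came without control 1, and without control 3 there were 2 genes. The members whose groups do not overlap numbered 6, became 15 of 43 tested with libraries scaled to the same summed plastid FPKM, and ranged from 6 to 22 when 1 library was left out, with 16 higher and 6 lower without control 2 and 15 in all without control 3. Leaving out a library can only add to such a count among genes still tested, and the shares over all genes are not given for these settings. The median log2 difference of the tested members was -0.51 and ranged from -1.06 to 0.28 when 1 library was left out. It was -0.25 and -0.21 after median-of-ratios and quantile scaling, where all genes were at -0.01 and 0.01. Relative to the plastid sum, the 15 separated members ranged from 15 to 24 when 1 library was left out and from 13 to 16 with other denominators. The cause of these changes was not tested.

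Of 225 values for 25 named members under settings that keep all libraries, 223 kept their direction and stayed uncalled. Both filters, robust variances and the replicate block cannot change the log2 difference itself, so for those settings the direction was fixed in advance. After median-of-ratios scaling psbA turned to 0.29 and atpE to 0.076. The log2 difference changed sign in 8 named members when 1 library was left out, with ranges of -0.89 to 1.07 for psbA, -1.01 to 0.71 for atpH, -0.076 to 1.65 for petN, -0.35 to 1.08 for ycf3, -1.15 to 0.32 for psaI, -1.09 to 0.69 for ycf4, -0.86 to 0.069 for psaJ and -1.36 to 0.62 for ndhE. Same-numbered libraries deviated from their group means with correlations of -0.137 to -0.00158, and the replicate block called 0 genes. The deviations of a group sum to 0 in each gene, so these correlations cannot exclude a pairing by plate or harvest. Depth limits low members: ndhI had an estimated 2 fragments in 1 library. Fragments of members under 300 coding bases were not estimated. The median of the nuclear subunits ranged from 0.36 to 1.04 when 1 library was left out, lowest without control 2.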
